A study of Mus musculus with 36 samples.

Results

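*Tgtp1*, *Tgtp2* and *Iigp1* encode effector immunity-related GTPases, *Irgm1*, *Irgm2* and *Igtp* encode regulatory ones, *Gbp2*, *Gbp3* and *Gbp7* encode guanylate-binding proteins, and *Irf1* encodes a transcription factor. These 10 genes were chosen by differences between genotypes, within a cell type and an agent, that were measured in these same libraries. Genotype differences of the members are therefore described without p values or calls, and nothing is read from them. The members are 10 of the 38887 genes in the table of counts, and all 10 passed the filter on low counts in both cell types.

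Interferons raise transcription of these genes through receptors that signal by JAK kinases. The effector GTPases load onto the membranes of vacuoles that hold parasites or bacteria, the regulatory GTPases sit on the membranes of the cell itself and keep the effectors inactive there, and guanylate-binding proteins join the attack on the vacuole or on free bacteria. The IL-27 receptor, made of the *Il27ra* product and the *Il6st* product gp130, also signals through JAK kinases, and the product of *Irf1* binds the promoters of many interferon-induced genes.

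The libraries came from 2 cell types, the long-term stem cells of blood (LT-HSC) and HPC-1, sorted from bone marrow of mice on a Western diet, all of them *Apoe*-deficient, that received PBS or Ang II for 2 weeks. The mice were *Apoe*-/- (control below), *Apoe*-/-*Il27ra*+/- (heterozygous below) or *Apoe*-/-*Il27ra*-/- (receptor-deficient below), and the labels call HPC-1 ST-HSC. The labels give no gender, age or batch and do not say that the samples of a group are separate animals. Y-linked genes show that each heterozygous and receptor-deficient group holds more than 1 animal, but not how many. A figure legend of the article gives 2 control, 4 heterozygous and 3 receptor-deficient mice, without a number per agent. After Ang II, 4 receptor-deficient libraries of each cell type were used here. The p values thus measure the spread between samples, part of which may be technical. The data cannot tell fewer cells of a type from less RNA per cell. LT-HSC after PBS had 1 control, 3 heterozygous and 3 receptor-deficient libraries, and after Ang II 2, 4 and 4. HPC-1 after PBS had 2, 3 and 3 libraries of these genotypes, and after Ang II 3, 4 and 4.

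*Il27ra*, the targeted gene, was at 42.9 and 51.8 CPM in control LT-HSC after Ang II, 30.2, 25.5, 27.1 and 32.8 in heterozygous and 16.3, 11.7, 16.2 and 19.3 in receptor-deficient LT-HSC. After PBS, *Il27ra* was at 42.7, 24.1 and 25.6 CPM in heterozygous and 9.42, 6.94 and 16.3 in receptor-deficient LT-HSC. In LT-HSC, receptor-deficient libraries were below heterozygous ones for each agent, without overlap. The library labelled control LT-HSC after PBS had 17.1 CPM of *Il27ra*, below all heterozygous libraries and within the span of the receptor-deficient ones after Ang II. It is the 1 library of its group, so no comparison uses that group. HPC-1 had less *Il27ra*, at 10.2, 8.88 and 6.07 CPM in control, 5.46, 9.58, 14.3 and 16.5 in heterozygous and 6.63, 5.91, 4.64 and 9.04 in receptor-deficient libraries after Ang II. After PBS, HPC-1 had 8.26 and 11.9 CPM of *Il27ra* in control, 15.6, 11.1 and 9.97 in heterozygous and 6.69, 11.1 and 8.35 in receptor-deficient libraries. Those genotypes overlapped, so *Il27ra* does not check the labels of HPC-1.

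Marker genes set 3 LT-HSC libraries apart. The mean log2 CPM of LT-HSC markers minus that of HPC-1 markers was 3.92 to 5.66 in 14 LT-HSC libraries and −6.09 to −3.80 in all 19 HPC-1 libraries. Receptor-deficient LT-HSC library 2 after PBS had a difference of −4.15, which lies in the HPC-1 range. Receptor-deficient LT-HSC library 2 after Ang II had −0.42 and carried 6753 CPM of summed neutrophil markers, *S100a9* highest among them, and receptor-deficient LT-HSC library 3 after PBS had 1.96 and 1152 CPM. The former also had 353 CPM of summed macrophage and monocyte markers. Summed erythroid markers ran from 7.71 to 1265 CPM in heterozygous and receptor-deficient LT-HSC, with a median of 47.3. Control libraries also stood apart: summed markers of intestinal epithelium were at 302 to 428 CPM in control LT-HSC against 35 to 127 in the other LT-HSC, and at 83.7 to 271 CPM against 28.2 to 80.0 in HPC-1. Y-linked genes were over 10 CPM in all 8 control libraries and in some but not all libraries of every heterozygous and receptor-deficient group, whose other libraries had 0 to 0.317 CPM. Depth was 1980283 to 6861078 counts per library with a median of 3139364, and all control libraries were among the 25 libraries under 4000000 counts. Differences from control cells thus carry genotype together with the intestinal markers, which cannot be told apart here. Libraries 1 and 2 of heterozygous and of receptor-deficient LT-HSC after Ang II were under 4000000 counts and had Y-linked genes, as did the control libraries. Fits of libraries under 4000000 counts, and with a covariate of Y-linked genes, are described below for differences from control LT-HSC after Ang II. What part of a genotype difference goes with depth or with Y-linked genes was not tested.

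Counts of *Tgtp1* and *Tgtp2* are uncertain relative to each other. Their transcripts have 2823 and 2810 bases and align with 99.33% identity, and 2330 of the 2749 windows of 75 bases in the *Tgtp1* transcript occur whole in *Tgtp2*. The share of *Tgtp1* in the summed counts of the pair ran from 24.5% to 60.1% in LT-HSC and from 0% to 42.8% in HPC-1. Control HPC-1 library 3 after Ang II had 0 counts of *Tgtp1* beside 132 of *Tgtp2*. *Igtp* and *Irgm2* overlap on the same strand, *Tgtp1* overlaps *Gm12185* on the same strand and *Olfr56* on the opposite strand, *Tgtp2* overlaps *Olfr56* on the opposite strand, *Irf1* overlaps *Gm17334* on the opposite strand, *Gbp7* overlaps *Gm43802* on the same strand and *Gbp2* overlaps *Mir6381* on the opposite strand, so part of their counts may come from a neighbor.

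On a scale of CPM per kilobase of all exons of a gene joined, averaged over all libraries of a cell type although its groups differ, *Tgtp2* had the highest mean in LT-HSC (54.5, SD 18.4), followed by *Tgtp1* (34.8, SD 17.4), *Gbp7* (29.3, SD 7.01), *Igtp* (22.1, SD 8.64) and *Gbp2* (21.5, SD 4.69). *Gbp3* (18.5, SD 6.38), *Irf1* (17.3, SD 4.12), *Irgm2* (15.2, SD 4.28), *Irgm1* (12.4, SD 1.69) and *Iigp1* (7.94, SD 3.28) were lower. In HPC-1 the same scale put *Gbp3* (38.5, SD 13.1) beside *Tgtp2* (36.9, SD 12.3), with *Irf1* (21, SD 3.19), *Gbp7* (19.9, SD 2.58), *Tgtp1* (15.8, SD 6.95), *Igtp* (14.5, SD 3.93), *Gbp2* (13.4, SD 3.87), *Irgm1* (12.7, SD 2.69), *Irgm2* (8.41, SD 2.30) and *Iigp1* (1.89, SD 1.51) below them. Most neighbors in these orders differed by less than the larger of their SDs, and the order of *Tgtp1* and *Tgtp2* is uncertain, so the ranks are loose.

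**Figure D1:**
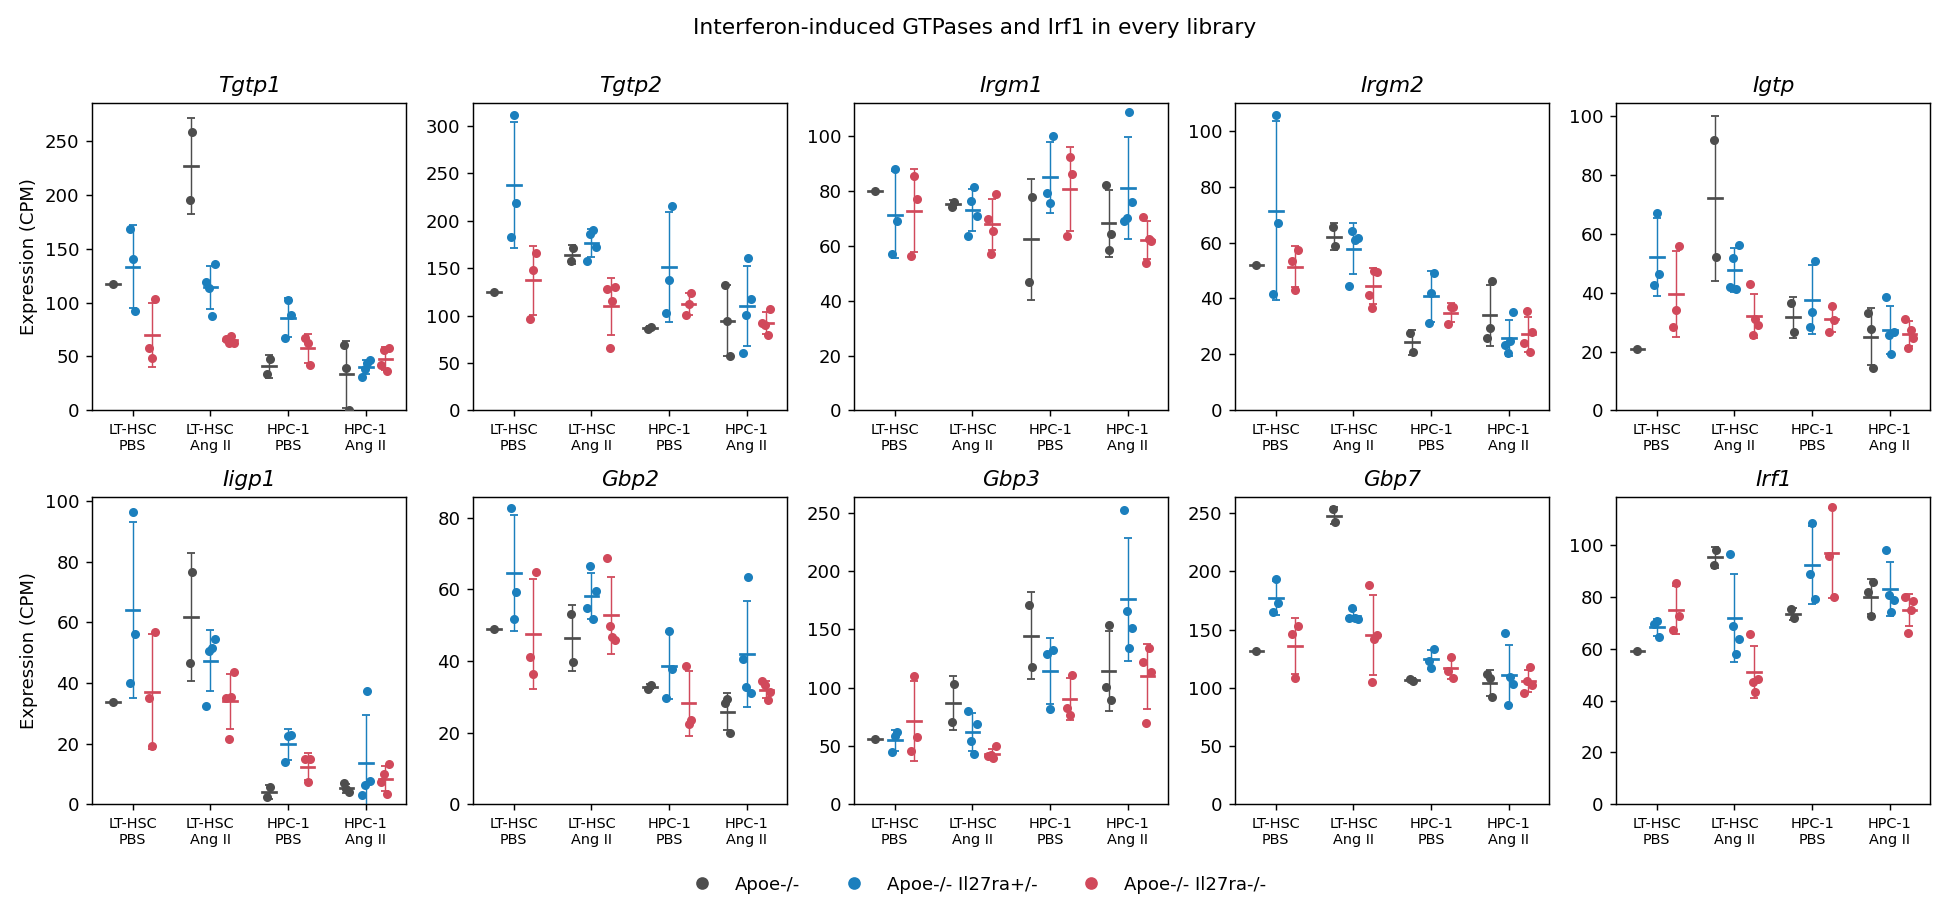
CPM of each member in every library, by cell type, agent and genotype. Points are libraries, horizontal lines are group means and bars are SD. The group of PBS LT-HSC from control mice has 1 library.

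LT-HSC after Ang II comprise 10 libraries, of which 4 combine the infusion with loss of the IL-27 receptor. Interferon signals act on effector GTPases, regulatory GTPases and *Irf1* alike, and many other influences act on the same genes. Heterozygous mice keep 1 intact *Il27ra* allele, and the article counts them as IL-27R-sufficient. Receptor protein was not measured in these libraries, so its amount in either genotype is not known from them. Comparisons of the 3 genotypes share libraries with one another.

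Among the effectors, *Tgtp1* was at 195 and 258 CPM in control, 119, 113, 87.9 and 136 in heterozygous and 65.8, 62.1, 69.3 and 62.8 in receptor-deficient LT-HSC after Ang II. Each genotype was thus separate from the other 2 for *Tgtp1*, with control highest. The log2 difference for *Tgtp1* was −0.81 ± 0.22 (SE) between receptor-deficient and heterozygous and −1.79 ± 0.26 between receptor-deficient and control cells, and −0.79 and −1.78 without the libraries numbered 2 that stand apart. *Tgtp2* was at 157 and 171 CPM in control, 157, 186, 190 and 173 in heterozygous and 128, 66.0, 115 and 130 in receptor-deficient LT-HSC. Control and heterozygous LT-HSC overlapped for *Tgtp2* and every receptor-deficient library was below them, library 2 the lowest. For *Tgtp2* the difference from heterozygous cells was −0.68 ± 0.21 and from control cells −0.57 ± 0.25, or −0.51 and −0.40 without the 2 libraries. Counts of the pair added together differed by −0.73 ± 0.17 from heterozygous and by −1.15 ± 0.21 from control LT-HSC. *Iigp1* had 46.7 and 76.6 CPM in control, 32.5, 50.5, 51.6 and 54.6 in heterozygous and 35.1, 21.6, 35.4 and 43.5 in receptor-deficient LT-HSC. The lowest *Iigp1* value of heterozygous LT-HSC lay among the receptor-deficient values. Receptor-deficient LT-HSC differed in *Iigp1* by −0.48 ± 0.33 from heterozygous and by −0.84 ± 0.39 from control cells, and by −0.33 and −0.69 without the 2 libraries. Without control library 2, which had more *Iigp1* than control library 1, the difference from control cells was −0.45.

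*Irgm1*, which keeps effectors off the membranes of the cell, was at 74.1 and 76.2 CPM in control, 63.6, 76.4, 81.6 and 70.9 in heterozygous and 69.9, 57.0, 65.4 and 79.0 in receptor-deficient LT-HSC after Ang II. All 3 genotypes overlapped for *Irgm1*, and the difference between receptor-deficient and heterozygous cells was −0.11 ± 0.17. *Irgm2* was at 65.5 and 58.7 CPM in control, 44.3, 64.0, 61.0 and 61.7 in heterozygous and 41.4, 36.7, 49.9 and 49.4 in receptor-deficient LT-HSC. Heterozygous library 1 was low for *Irgm2* and the other heterozygous libraries were above all receptor-deficient ones. *Irgm2* differed by −0.38 ± 0.23 between receptor-deficient and heterozygous cells and by −0.47 ± 0.28 between receptor-deficient and control cells. *Igtp*, the regulatory GTPase that overlaps *Irgm2*, reached 92.0 and 52.3 CPM in control, 42.0, 51.7, 41.1 and 56.2 in heterozygous and 42.9, 25.5, 31.1 and 29.2 in receptor-deficient LT-HSC. Receptor-deficient library 1 was within the heterozygous range for *Igtp* and the other receptor-deficient libraries were below it. The *Igtp* difference was −0.57 ± 0.25 from heterozygous and −1.16 ± 0.30 from control cells, the latter −0.68 without control library 1.

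*Gbp2* was at 53.0 and 39.8 CPM in control, 54.7, 66.6, 51.8 and 59.6 in heterozygous and 68.8, 49.6, 46.6 and 45.9 in receptor-deficient LT-HSC after Ang II. Control LT-HSC had the lowest mean of *Gbp2* and the highest means of *Gbp3* and *Gbp7*. The *Gbp2* difference was −0.14 ± 0.21 from heterozygous and 0.19 ± 0.27 from control cells, the latter 0.42 without control library 1 and −0.01 without control library 2. *Gbp3* was at 70.3 and 103 CPM in control, 80.1, 54.6, 43.0 and 68.9 in heterozygous and 41.1, 41.9, 39.7 and 49.7 in receptor-deficient LT-HSC. Heterozygous library 3 had as little *Gbp3* as receptor-deficient LT-HSC, and both control libraries were above all receptor-deficient ones. Differences of −0.51 ± 0.25 from heterozygous and −0.99 ± 0.29 from control LT-HSC were fitted for *Gbp3*. *Gbp7* was at 253 and 243 CPM in control, 160, 169, 160 and 159 in heterozygous and 189, 105, 142 and 145 in receptor-deficient LT-HSC. Both control libraries had more *Gbp7* than any other LT-HSC library, while receptor-deficient library 1 was above the heterozygous range and the others below it. *Gbp7* differed by −0.76 ± 0.19 from control and by −0.15 ± 0.16 from heterozygous cells, or by −0.64 and −0.04 without the libraries numbered 2. *Irf1*, the transcription factor, was at 92.4 and 98.0 CPM in control, 96.6, 68.9, 58.1 and 63.9 in heterozygous and 65.8, 47.0, 43.1 and 48.2 in receptor-deficient LT-HSC. Heterozygous library 1 had control levels of *Irf1*, and receptor-deficient library 1 was within the heterozygous range. The *Irf1* difference was −0.49 ± 0.18 from heterozygous and −0.89 ± 0.21 from control cells, and −0.46 and −0.87 without the 2 libraries.

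All 10 members had a log2 difference below 0 between receptor-deficient and heterozygous LT-HSC after Ang II, as did 47.4% of the genes tested, and 2 members, *Tgtp1* and *Tgtp2*, were lower without overlap of the groups, as were 0.996% of genes. The median member difference was −0.48 against 0.01 for all genes. Against control LT-HSC, 9 members were below 0 (41% of genes), and 8 were lower without overlap (10.2% of genes). In libraries under 4000000 counts the 10 differences from control cells ran from −1.78 for *Tgtp1* to 0.40 for *Gbp2*, and with a covariate of Y-linked genes from −1.76 to 0.29. The receptor-deficient cells under 4000000 counts were libraries 1 and 2 only, and library 2 carries neutrophil markers. All these differences from control cells are among those that chose the members, and nothing is read from them. Between heterozygous and control LT-HSC, 8 members were below 0 (42.2% of genes), and 2, *Tgtp1* and *Gbp7*, were lower without overlap (9.37% of genes). Mean log2 CPM fell from control to heterozygous to receptor-deficient cells for 8 members, all but *Tgtp2* and *Gbp2*, and for 19.1% of genes. Summed over the members, CPM was 1100 and 1177 in control, 850, 901, 827 and 903 in heterozygous, and 748, 512, 637 and 683 in receptor-deficient LT-HSC. Receptor-deficient library 2, the lowest sum, is the one with neutrophil markers.

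After PBS the bone marrow is not under the load of Ang II. The article describes blood stem cells as resting until their surroundings change, and whether these LT-HSC were at rest was not tested. Receptor-deficient libraries 2 and 3 after PBS stand apart by markers, so most differences below are also given without the libraries that stand apart, which leaves library 1 against 3 heterozygous libraries. The 1 control library was compared with no other.

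*Tgtp1* was at 117 CPM in the control library, 168, 140 and 91.8 in heterozygous and 57.4, 48.3 and 104 in receptor-deficient LT-HSC after PBS. Library 3 was the only receptor-deficient library within the heterozygous range of *Tgtp1*. The difference between receptor-deficient and heterozygous cells was −0.93 ± 0.25 for *Tgtp1*, and −1.20 without the libraries that stand apart. *Tgtp2* was at 125 CPM in control, 183, 311 and 219 in heterozygous and 96.4, 148 and 166 in receptor-deficient LT-HSC. Every receptor-deficient library had less *Tgtp2* than every heterozygous one, by −0.80 ± 0.24, and by −1.30 without the libraries that stand apart. *Iigp1* was at 33.8, 39.8, 96.4 and 56.0 and 35.1, 19.3 and 56.9 CPM in the same order of genotypes. Heterozygous library 2 had the most *Iigp1* and receptor-deficient library 2 the least. Receptor-deficient cells differed in *Iigp1* by −0.80 ± 0.38, or −0.87 without the libraries that stand apart, −0.38 without heterozygous library 2 and −1.26 without receptor-deficient library 3.

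For *Irgm1* the PBS values were 79.9 CPM in control, 56.8, 88.1 and 69.1 in heterozygous and 56.1, 85.3 and 77.1 in receptor-deficient LT-HSC. They overlapped, with an *Irgm1* difference of 0.03 ± 0.20, or −0.35 without the libraries that stand apart. *Irgm2* had 51.8, 41.8, 106 and 67.0 and 53.5, 43.1 and 57.3 CPM in this order. Heterozygous library 2 had the highest *Irgm2* of all LT-HSC, and without it the difference of −0.49 ± 0.26 shrank to −0.10. *Igtp* stood at 20.9, 42.7, 67.2 and 46.3 and 28.3, 34.1 and 56.1 CPM. The control library had the least *Igtp* of all LT-HSC, and receptor-deficient and heterozygous cells, which overlapped, differed by −0.40 ± 0.28, or −0.88 without the libraries that stand apart and −0.17 without heterozygous library 2.

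*Gbp2* after PBS was at 49.0 CPM in control, 82.6, 51.7 and 59.3 in heterozygous and 41.1, 36.3 and 64.9 in receptor-deficient LT-HSC. The genotypes overlapped for *Gbp2* and differed by −0.43 ± 0.24, or −0.63 without the libraries that stand apart and −0.23 without heterozygous library 1. *Gbp3* was at 56.1, 44.7, 58.3 and 61.7 and 45.4, 110 and 57.8 CPM. Its highest value in LT-HSC was in receptor-deficient library 2, which has HPC-1 markers, and the difference of 0.37 ± 0.28 was −0.10 without that library. *Gbp7* was at 131, 165, 193 and 173 and 146, 108 and 153 CPM. Receptor-deficient LT-HSC were below heterozygous ones in *Gbp7* without overlap, by −0.39 ± 0.18, or −0.27 without the libraries that stand apart. *Irf1* was at 59.0, 69.5, 70.7 and 64.5 and 67.3, 85.3 and 72.5 CPM. Receptor-deficient and heterozygous LT-HSC overlapped in *Irf1* and differed by 0.14 ± 0.20, or −0.01 without the libraries that stand apart.

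After PBS 7 members had a difference below 0 between receptor-deficient and heterozygous LT-HSC (51.7% of genes), and 2, *Tgtp2* and *Gbp7*, were lower without overlap (3.4% of genes). Added together, *Tgtp1* and *Tgtp2* differed by −0.85 ± 0.20 in this comparison.

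HPC-1 lie downstream of LT-HSC and had less *Il27ra*. The same 10 genes are described by genotype in HPC-1, and nothing is read from their genotype differences there either. *Iigp1* was the scarcest of them, and its folds rest on few counts.

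*Tgtp1* in HPC-1 after Ang II was at 60.5, 39.6 and 0 CPM in control, 31.4, 38.3, 43.9 and 46.7 in heterozygous and 42.1, 56.0, 36.2 and 57.6 in receptor-deficient libraries. *Tgtp1* after PBS was at 33.4 and 48.0, 67.5, 103 and 88.1 and 67.6, 62.8 and 42.0 CPM. Besides the 0 in control library 3, *Tgtp1* overlapped across genotypes after Ang II, and heterozygous HPC-1 had the highest mean after PBS. *Tgtp2* was at 133, 94.2 and 57.2, 60.0, 101, 161 and 118 and 92.3, 89.7, 79.7 and 107 CPM after Ang II. It was at 85.8 and 88.3, 102, 137 and 215 and 100, 113 and 124 CPM after PBS. Control HPC-1 had the least *Tgtp2* after PBS, and no order of genotypes held after Ang II. *Iigp1* was at 6.88, 5.07 and 3.90, 3.18, 6.39, 37.4 and 7.59 and 7.21, 10.1, 3.48 and 13.2 CPM after Ang II. After PBS it was at 2.36 and 5.61, 13.9, 22.4 and 22.8 and 15, 7.39 and 14.9 CPM. Heterozygous library 3 after Ang II had far more *Iigp1* than the rest, and control HPC-1 after PBS had less than all others of that agent. Heterozygous and control HPC-1 differed in *Iigp1* by 2.28 ± 0.82 after PBS and by 1.32 ± 0.65 after Ang II, or 0.10 without heterozygous library 3.

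*Irgm1* was at 82.0, 58.4 and 64.1 CPM in control, 69.1, 70.3, 109 and 76.1 in heterozygous and 70.6, 53.6, 62.6 and 61.7 in receptor-deficient HPC-1 after Ang II. After PBS the *Irgm1* values were 46.8 and 77.8, 79.1, 75.8 and 99.9 and 63.4, 92.3 and 86.2 CPM. Receptor-deficient HPC-1 after Ang II had less *Irgm1* than heterozygous ones, apart from library 1, which overlapped the heterozygous range, and they overlapped control HPC-1. After PBS all genotypes overlapped in *Irgm1*. *Irgm2* was at 26.0, 29.5 and 46.4, 23.2, 20.5, 24.8 and 35 and 24.2, 35.5, 20.9 and 28.1 CPM after Ang II. *Irgm2* after PBS was at 27.5 and 21, 31.1, 42.0 and 49.2 and 30.9, 36.9 and 36.9 CPM. Control HPC-1 had the least *Irgm2* after PBS and overlapped the others after Ang II. *Igtp* was at 33.2, 27.6 and 14.3, 38.7, 25.6, 19.1 and 26.6 and 31.1, 21.2, 27.2 and 24.8 CPM after Ang II. Under PBS it was at 36.6 and 26.6, 28.5, 33.5 and 50.9 and 26.8, 35.4 and 30.8 CPM. The genotypes overlapped for *Igtp* with either agent.

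*Gbp2* was at 28.1, 29.5 and 19.9 CPM in control, 40.5, 32.9, 63.4 and 31.2 in heterozygous and 34.3, 33.4, 29.0 and 31.2 in receptor-deficient HPC-1 after Ang II. With PBS its values were 32.3 and 33.3, 29.8, 48.5 and 37.8 and 38.6, 22.5 and 23.5 CPM. Heterozygous HPC-1 were above control HPC-1 in *Gbp2* after Ang II without overlap (3.23% of genes), and after PBS receptor-deficient libraries 2 and 3 were lowest. *Gbp3* was at 100, 153 and 89.7, 253, 166, 134 and 151 and 122, 69.9, 134 and 114 CPM after Ang II. After PBS *Gbp3* was at 171 and 118, 129, 81.6 and 132 and 82.9, 76.9 and 111 CPM. Heterozygous HPC-1 after Ang II had the highest mean of *Gbp3*, though the lowest of them was just under the highest receptor-deficient library, and the 2 groups differed by −0.68 ± 0.23. *Gbp7* was at 112, 108 and 91.9, 147, 84.9, 109 and 103 and 96.0, 106, 118 and 102 CPM after Ang II. With PBS, *Gbp7* was at 108 and 106, 123, 117 and 133 and 115, 127 and 109 CPM. Control HPC-1 had the least *Gbp7* after PBS by a small margin, and after Ang II the genotypes overlapped. *Irf1* was at 81.7, 72.6 and 85.8, 98.2, 80.8, 74.3 and 79.0 and 79.9, 66.1, 75 and 78.2 CPM after Ang II. *Irf1* after PBS was at 75.1 and 71.8, 88.7, 109 and 79.1 and 95.6, 115 and 80.0 CPM. Control HPC-1 had less *Irf1* than the others after PBS, and no genotype was separate after Ang II.

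Between receptor-deficient and heterozygous HPC-1, 8 members were below 0 after Ang II (51.1% of genes) and 9 after PBS (51.6% of genes). Between heterozygous and control HPC-1, 1 member was below 0 after Ang II, *Irgm2* (48.2% of genes), and 1 after PBS, *Gbp3* (48.7% of genes), where 6 members were higher in heterozygous cells without overlap (12.5% of genes). Between receptor-deficient and control HPC-1, 6 members were below 0 after Ang II (49.5% of genes) and 3 after PBS (49.9% of genes). Without overlap, 5 members were higher (14.3% of genes) and 1 was lower (14.7% of genes) in receptor-deficient cells after PBS. The order from control over heterozygous to receptor-deficient cells held in HPC-1 for 0 members after Ang II (14% of genes) and for 1 member, *Gbp3*, after PBS (21.5% of genes). Genotype differences chose the members, so nothing is read from a contrast of these counts with LT-HSC.

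LT-HSC and HPC-1 differ in self-renewal, and high basal expression of interferon-induced genes without infection has been described in stem cells of several tissues. Effector GTPases such as *Iigp1* and guanylate-binding proteins protect a cell from pathogens inside it, so their basal transcripts are of interest in a cell that persists for long. The members were not chosen by cell type, and the comparison was tested. Its libraries also entered the genotype differences that chose the members, so p values of members in the average and in single pairs are not free of that choice. The comparison averaged 5 pairs of groups with the same genotype and agent, with 16 LT-HSC and 17 HPC-1 libraries, and left out control cells after PBS. Ranges and medians given for this comparison are of those 16 and 17 libraries.

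*Iigp1* had the largest difference among the members. Its level was 19.3 to 96.4 CPM in LT-HSC with a median of 45.1, and 3.18 to 37.4 CPM in HPC-1 with a median of 7.59. All 16 LT-HSC libraries compared were above the median of HPC-1, and the 5 pairs all had more *Iigp1* in LT-HSC, by 2.12 ± 0.25 (edgeR, adjusted p 8.05e-08). *Tgtp1* spanned 48.3 to 258 CPM in LT-HSC and 0 to 103 in HPC-1, with medians of 97.7 and 46.7. LT-HSC had more *Tgtp1* in 5 of 5 pairs and 16 of 16 libraries were above the median of HPC-1, with a difference of 1.12 ± 0.24 (edgeR, adjusted p 0.000623). *Tgtp2* spanned 66.0 to 311 CPM in LT-HSC and 57.2 to 215 in HPC-1, with medians of 162 and 102. In 5 of 5 pairs *Tgtp2* was higher in LT-HSC, with 14 of 16 libraries above the median of HPC-1, by 0.53 ± 0.13 (edgeR, adjusted p 0.00103). The pair added together was higher by 0.76 ± 0.12, or 1.70-fold (edgeR, adjusted p 6.91e-06).

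Of the regulatory GTPases, *Irgm2* ranged over 36.7 to 106 CPM in LT-HSC and 20.5 to 49.2 in HPC-1, with medians of 55.4 and 30.9. LT-HSC were higher in *Irgm2* in 5 of 5 pairs, with 16 of 16 libraries above the median of HPC-1, by 0.82 ± 0.12 (edgeR, adjusted p 5.60e-07). *Igtp* ranged over 25.5 to 92.0 CPM and 14.3 to 50.9 CPM, with medians of 42.8 and 27.6. The *Igtp* difference of 0.69 ± 0.13 favored LT-HSC in 5 of 5 pairs, with 15 of 16 libraries above the median of HPC-1 (edgeR, adjusted p 5.62e-05). *Irgm1* ranged over 56.1 to 88.1 CPM in LT-HSC and 53.6 to 109 in HPC-1, with near-equal medians of 72.5 and 70.6. It was the 1 member not called, at −0.05 ± 0.10 with 2 of 5 pairs higher in LT-HSC (edgeR, adjusted p 0.799), and DESeq2 gave a difference of 0.02. Without heterozygous HPC-1 library 1 or 3 after PBS the *Irgm1* difference was 0.02 or 0.01.

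*Gbp2* was at 36.3 to 82.6 CPM in LT-HSC and 19.9 to 63.4 in HPC-1, with medians of 52.4 and 31.2. It was higher in LT-HSC in 5 of 5 pairs, with 16 of 16 libraries above the median of HPC-1, by 0.70 ± 0.12 (edgeR, adjusted p 6.96e-06). *Gbp7* was at 105 to 253 CPM and 84.9 to 147 CPM, with medians of 160 and 109. LT-HSC had more *Gbp7* in 5 of 5 pairs, with 14 of 16 libraries above the median of HPC-1, by 0.60 ± 0.08 (edgeR, adjusted p 1.12e-07). *Gbp3* went the other way, at 39.7 to 110 CPM in LT-HSC and 69.9 to 253 in HPC-1, with medians of 56.2 and 122. All 16 LT-HSC libraries were below the median of HPC-1 for *Gbp3*, and the 5 pairs had a difference of −0.93 ± 0.13 (edgeR, adjusted p 3.36e-07). *Irf1* was at 43.1 to 98.0 CPM in LT-HSC and 66.1 to 115 in HPC-1, with medians of 68.1 and 80.0. LT-HSC had less *Irf1* in 4 of 5 pairs, with 12 of 16 libraries below the median of HPC-1, by −0.26 ± 0.09 (edgeR, adjusted p 0.0133). The *Irf1* call was lost without heterozygous HPC-1 library 1 after PBS (edgeR, adjusted p 0.0981) and without receptor-deficient HPC-1 library 2 after PBS (edgeR, adjusted p 0.0555). Upper-quartile scaling, no filter and only libraries under 4000000 counts also ended it (edgeR, adjusted p 0.0511, 0.0789 and 0.0916).

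In all, 9 members were called between cell types (36.3% of genes), 7 of them higher in LT-HSC (17.9% of genes) and 2 lower (18.4% of genes), and DESeq2 also called 9. Without the 3 LT-HSC libraries that stand apart the same 9 were called, with 2.17 for *Iigp1*, 1.10 for *Tgtp1*, −1.02 for *Gbp3* and −0.25 for *Irf1*. Without the control libraries *Tgtp1* differed by 0.72. Single pairs called fewer. Heterozygous cells after PBS had 0 members higher in LT-HSC (3.84% of genes) and 1 lower, *Gbp3* (3.84% of genes), where DESeq2 called 5, while receptor-deficient cells after PBS had 0 called (0.883% of genes) with 3 members at an unadjusted p under 0.05 (10.8% of genes) and 0 by DESeq2. After Ang II, 4 members were higher in control LT-HSC, namely *Tgtp1*, *Igtp*, *Iigp1* and *Gbp7* (5.37% of genes). In heterozygous cells after Ang II, *Tgtp1*, *Irgm2*, *Igtp*, *Iigp1* and *Gbp7* were higher in LT-HSC (7.59% of genes) and *Gbp3* was lower (7.26% of genes), and in receptor-deficient cells *Irgm2*, *Iigp1*, *Gbp2* and *Gbp7* were higher (7.04% of genes) and *Gbp3* and *Irf1* lower (5.48% of genes).

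These single-pair counts depend on the method and on particular libraries. In heterozygous cells after PBS the count of 1 was also 4 with only the groups compared or with a filter on a mean of 10 counts, 3 with upper-quartile scaling or the replicate number as a block, and 0 in libraries under 4000000 counts, and it was 2 without LT-HSC library 1 and 0 without LT-HSC library 2, LT-HSC library 3 or HPC-1 library 1. In receptor-deficient cells after PBS the count of 0 was 1 without a filter or without LT-HSC library 2, the one with HPC-1 markers, and 2 without both LT-HSC libraries numbered 2 that stand apart. In control cells after Ang II the count of 4 was 2 with only the groups compared. After Ang II in libraries under 4000000 counts, the counts of 6 were 2 in heterozygous and 1 in receptor-deficient cells, the latter 2 without a filter. In heterozygous cells after Ang II the count of 6 was 3 without HPC-1 library 2, and in receptor-deficient cells after Ang II it fell from 6 to 3 without LT-HSC library 1, 3 or 4 and to 2 without HPC-1 library 1, 3 or 4.

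**Figure D2:**
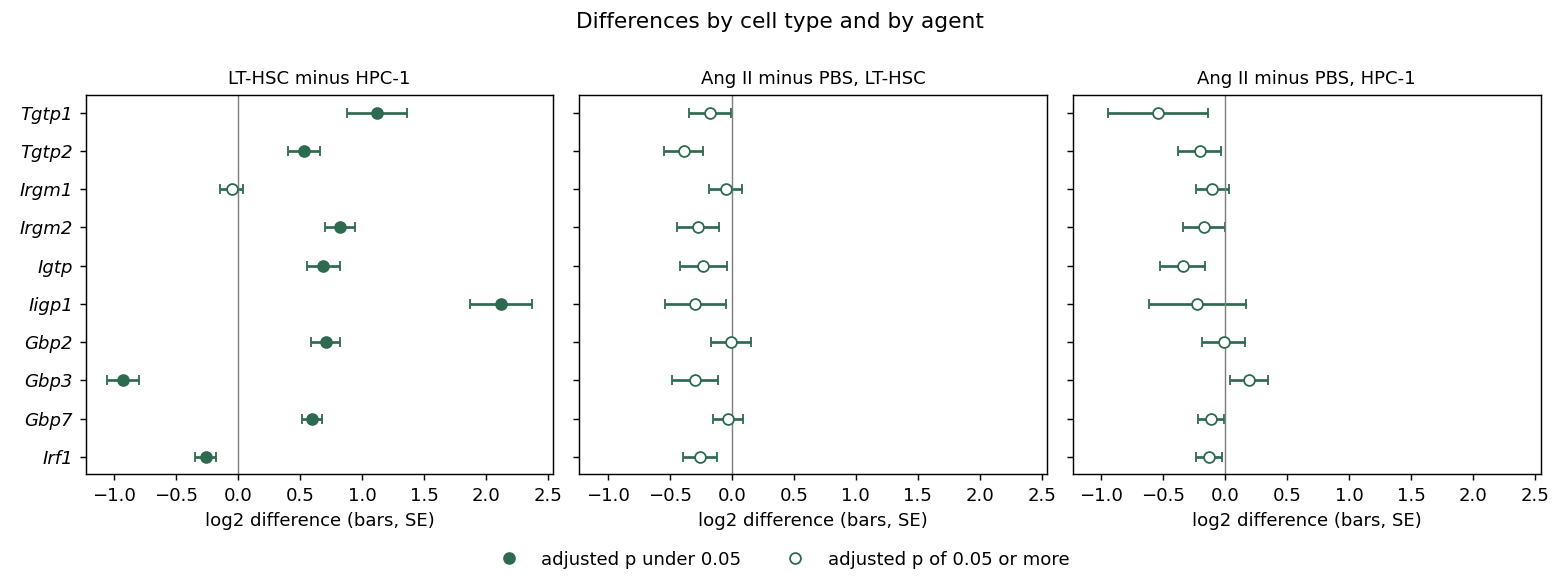
Log2 difference of each member between cell types and between agents, averaged over genotypes. Bars are SE, filled points have an adjusted p under 0.05.

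Ang II infusion raises blood pressure and drives hematopoietic stem and progenitor cells to expand in this model. The article reports that expansion in mice with the IL-27 receptor and a blunted one in receptor-deficient mice. Interferon signals can accompany emergency blood formation, and the GTPases respond to them. The agents were compared within heterozygous and receptor-deficient mice in LT-HSC, and within all 3 genotypes in HPC-1, and then averaged. These libraries also entered the genotype differences that chose the members, so no p value of a member that involves the agents is free of that choice.

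In LT-HSC edgeR called 0 members for Ang II against PBS and 0% of genes, with 1 member (2.83% of genes) at an unadjusted p under 0.05, and DESeq2 called 0 members and 1 gene. That member was *Tgtp2*, at 66.0 to 190 CPM after Ang II and 96.4 to 311 after PBS in the groups compared, with 6 of 8 libraries after Ang II below the median after PBS. It was lower after Ang II in both genotypes, by −0.39 ± 0.16 (edgeR, p 0.0239, adjusted p 1.00), by −0.25 without heterozygous library 2 after PBS and by −0.05 without the 3 libraries that stand apart. *Irf1* was at 43.1 to 96.6 CPM after Ang II and 64.5 to 85.3 after PBS, and 7 of 8 libraries were below the PBS median, with a difference of −0.26 ± 0.14 (edgeR, adjusted p 1.00), or −0.02 in libraries under 4000000 counts. Mean *Irf1* was lower after Ang II in receptor-deficient LT-HSC and higher in heterozygous LT-HSC, at 71.9 against 68.2 CPM. Of those heterozygous libraries, 3 of 4 were nevertheless below their PBS median of 69.5 CPM. All 10 members were below 0 in LT-HSC, as were 54.8% of genes, with a median of −0.24 against −0.03 for all genes. By genotype, 7 members were below 0 in heterozygous (54.6% of genes) and 8 in receptor-deficient LT-HSC (51.3% of genes). The count of 10 for the average rests on small values. Without receptor-deficient library 3 after PBS, *Tgtp1* was 0.03 and *Gbp7* 0.02, and without heterozygous library 2 after PBS, *Irgm1* was 0.05 and *Gbp7* 0.02. Without receptor-deficient library 2 or 1 after PBS, *Irgm1* was 0.02 or *Gbp7* 0.01, and without receptor-deficient library 2 after Ang II, *Gbp7* was 0.03. *Gbp2*, at −0.01, turned above 0 without any 1 of 6 libraries, and without the 3 libraries that stand apart *Irgm1* was 0.17, *Igtp* 0.05, *Gbp2* 0.10 and *Gbp3* 0.02.

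By genotype, 0 members had an unadjusted p under 0.05 in heterozygous LT-HSC (4.93% of genes) and 2 in receptor-deficient LT-HSC (0.917% of genes). *Irf1* was one, with all 4 libraries after Ang II below the lowest of the 3 after PBS, as for 1.26% of genes. It differed by −0.57 ± 0.19 (edgeR, p 0.00748, adjusted p 1.00), or by −0.24 in libraries under 4000000 counts. *Gbp3* was the other, with 3 of 4 libraries after Ang II below the lowest after PBS, by −0.74 ± 0.26 (edgeR, p 0.0106, adjusted p 1.00), and by −0.27 without the PBS library with HPC-1 markers. Without all 3 libraries that stand apart this *Gbp3* difference was −0.09. The receptor-deficient libraries after Ang II also entered the genotype differences that chose the members. Nothing is therefore read from these counts and p values by genotype.

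In HPC-1 edgeR called 0 members for Ang II against PBS and 0% of genes, with 0 members (3.21% of genes) at an unadjusted p under 0.05, and DESeq2 called 0 members and 3 genes. Differences below 0 were found for 9 members, all but *Gbp3*, and for 48.5% of genes. *Tgtp1* had the largest, with all 11 libraries after Ang II below the median of the 8 after PBS and a difference of −0.54 ± 0.40 (edgeR, adjusted p 1.00), or −0.36 without the library with 0 counts. *Igtp* differed by −0.34 ± 0.18 and was lower after Ang II in 3 of 3 genotypes (edgeR, adjusted p 1.00). Without control library 2 after PBS, *Irgm1* and *Iigp1* turned from −0.11 and −0.22 to 0.04 and 0.03, and *Gbp2*, at −0.01, turned above 0 without any 1 of 5 libraries.

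By genotype, 0 members had an unadjusted p under 0.05 in control (3.18% of genes), 2 in heterozygous (3.93% of genes) and 1 in receptor-deficient HPC-1 (1.85% of genes). In heterozygous HPC-1, *Gbp3* was above all 3 PBS libraries in 4 of 4 libraries after Ang II, as were 2.17% of genes. It differed by 0.61 ± 0.25 (edgeR, p 0.0211, adjusted p 1.00), or by 0.40 without library 1 after Ang II. *Irgm2* was below the lowest PBS library in 3 of 4, by −0.65 ± 0.27 (edgeR, p 0.0255, adjusted p 1.00). *Tgtp1* was below the lowest PBS library in 4 of 4 heterozygous libraries, as were 2.15% of genes. Its means were 40.1 against 86.1 CPM, and it differed by −1.11 ± 0.65 (edgeR, p 0.111, adjusted p 1.00). In receptor-deficient HPC-1 the 1 member was *Irf1*, by −0.38 ± 0.17 (edgeR, p 0.0401, adjusted p 1.00).

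A difference between the cell types in their response to Ang II was tested as an interaction within heterozygous and within receptor-deficient mice. edgeR called 0 members and 0% of genes in both, with 0 members in heterozygous (3.03% of genes) and 1 in receptor-deficient mice (2.35% of genes) at an unadjusted p under 0.05, and DESeq2 called 0 genes. The 1 member was *Gbp3* in receptor-deficient mice, lower after Ang II in LT-HSC and not in HPC-1, with an interaction of −1.02 ± 0.38 (edgeR, p 0.0118, adjusted p 1.00), or −0.57 without the PBS LT-HSC library with HPC-1 markers, −0.56 in libraries under 4000000 counts and −0.38 without the 3 LT-HSC libraries that stand apart.

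Other immunity-related GTPases and guanylate-binding proteins share ancestry, clusters and interferon control with the members. Of 16 such genes 9 passed the filter on low counts in both cell types, with 3 called higher in LT-HSC (17.9% of all genes) and 2 lower (18.4% of all genes). *Gbp4*, *Gbp8* and *Gbp9* were nearly confined to LT-HSC. Median CPM was 13.3, 14.9 and 21 for them in LT-HSC and 0.299, 0 and 0.197 in HPC-1, and 9, 12 and 9 of all 19 HPC-1 libraries had 0 counts. The 3 genes were higher in LT-HSC in 5 of 5 pairs each. They passed the filter on low counts in LT-HSC and not in HPC-1, so they are not counted above and no fold or p is given for them. *Gm4951* and *F830016B08Rik*, relatives of *Iigp1*, had medians of 18.8 and 17.9 CPM in LT-HSC and 2.36 and 0.951 in HPC-1. These 2 were higher in LT-HSC in 5 of 5 pairs, by 2.72 ± 0.28 and 3.85 ± 0.39 (edgeR, adjusted p 6.37e-10 and 1.15e-09). *F830016B08Rik* had 0 counts in 4 of all 19 HPC-1 libraries and at most 5.53 CPM in the others. *Gm4951* had 0 counts in 1 and at most 10.2 CPM. Both differences thus rest on few HPC-1 counts, and their size is uncertain.

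Among ligands of the pathway, transcripts of the interferon genes were scarce in both cell types. *Ifng* had 0 counts in 13 of 17 LT-HSC and 17 of 19 HPC-1 libraries, *Ifnb1* in 17 and 18, and *Ifna4* in 13 and 16. *Il27* had 0 counts in 4 LT-HSC and 9 HPC-1 libraries. Its medians over all 17 and 19 libraries were 1.02 and 0.203 CPM, and its highest values 11.1 and 2.60 CPM. Of 5 ligand genes 1 passed the filter in both cell types. This was *Ebi3*, which encodes a subunit of IL-27 and had medians of 9.54 CPM in LT-HSC and 4.46 in HPC-1. Its difference was 1.11 ± 0.39 in 5 of 5 pairs (edgeR, adjusted p 0.0241). The *Ebi3* call was lost without control LT-HSC library 1 after Ang II (edgeR, adjusted p 0.107). It was also lost with the covariate of Y-linked genes (edgeR, adjusted p 0.0766) and in libraries under 4000000 counts (edgeR, adjusted p 0.183).

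All 13 genes of receptors and their signaling were tested, with 7 higher in LT-HSC (17.9% of all genes) and 4 lower (18.4% of all genes). The IL-27 receptor subunits went opposite ways. *Il27ra* had a median of 24.8 CPM in LT-HSC and 9.04 in HPC-1 and differed by 1.34 ± 0.17 (edgeR, adjusted p 2.95e-08), while *Il6st* had 93.8 and 143 CPM and differed by −0.59 ± 0.08 (edgeR, adjusted p 2.48e-07), each in 5 of 5 pairs. Heterozygous and receptor-deficient libraries are part of both cell types, so the *Il27ra* values mix intact and targeted alleles. Receptor subunits *Ifnar2* and *Ifngr2* were lower in LT-HSC, with medians of 63.0 against 133 CPM and 12.6 against 31.7 CPM. They differed by −1.05 ± 0.12 and −1.11 ± 0.16 in 5 of 5 pairs (edgeR, adjusted p 2.43e-09 and 5.60e-07). *Jak2* was higher in LT-HSC, at 153 against 92.1 CPM in the median, by 0.65 ± 0.10 in 5 of 5 pairs (edgeR, adjusted p 6.62e-07).

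Of 8 other interferon regulatory factors and inhibitors, 3 were called, beside 36.3% of all genes, of which 2 were higher in LT-HSC and 1 was lower. *Irf8* had a median of 4.06 CPM in LT-HSC and 195 in HPC-1 and was lower by −4.08 ± 0.52 in 5 of 5 pairs (edgeR, adjusted p 6.99e-07). In 1 LT-HSC library *Irf8* was above the HPC-1 median, and its difference ran from −5.88 to −3.72 over the alternatives and libraries left out. *Irf2*, a competitor of *Irf1* at shared sites, had 145 and 102 CPM and was higher in LT-HSC by 0.63 ± 0.10 in 5 of 5 pairs (edgeR, adjusted p 5.39e-06). *Irf7* had 33.4 and 18.9 CPM and was higher by 0.74 ± 0.19 in 5 of 5 pairs (edgeR, adjusted p 0.00206). Other interferon targets were split, with 7 of the 17 that passed the filter in both cell types higher in LT-HSC (17.9% of all genes) and 5 lower (18.4% of all genes). *Rsad2*, *Oasl2* and *Cd274* had medians of 30.8, 90.9 and 50.6 CPM in LT-HSC and 10.4, 51.0 and 31.7 in HPC-1. They were higher in LT-HSC by 1.47 ± 0.24, 0.85 ± 0.15 and 0.77 ± 0.14 in 5 of 5 pairs (edgeR, adjusted p 1.11e-05, 1.86e-05 and 1.60e-05). *Ly6a*, which encodes Sca-1, had 15.1 and 5.62 CPM and was higher by 1.33 ± 0.25, and *Tap2*, for antigen transport, had 96.3 and 160 CPM and was lower by −0.56 ± 0.10, in 5 of 5 pairs each (edgeR, adjusted p 4.40e-05 and 2.70e-05). No gene of the 5 lists was called for Ang II against PBS in either cell type by edgeR.

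Across the 17 LT-HSC libraries the correlation of log2 CPM over 45 pairs of members had a median r of 0.414 and a range of −0.405 to 0.842. Across the 19 HPC-1 libraries the median was 0.224 and the range −0.496 to 0.785. Genes outside the list with the highest r to the mean of the members in both cell types, of 12759 compared, were *H2-K1* (r = 0.699 in 17 LT-HSC and 0.662 in 19 HPC-1 libraries), *Gm4070* (0.640 and 0.718), *H2-Q5* (0.678 and 0.638) and *Apol7e* (0.683 and 0.633). The members were chosen by genotype differences in these libraries and every r was taken across genotypes, so those differences enter r and pick such genes too. *H2-K1*, for one, had means of 1068 CPM in control, 1001 in heterozygous and 770 in receptor-deficient LT-HSC after Ang II. Nothing is read from the sign or size of r, or from which genes were named.

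**Figure D3:**
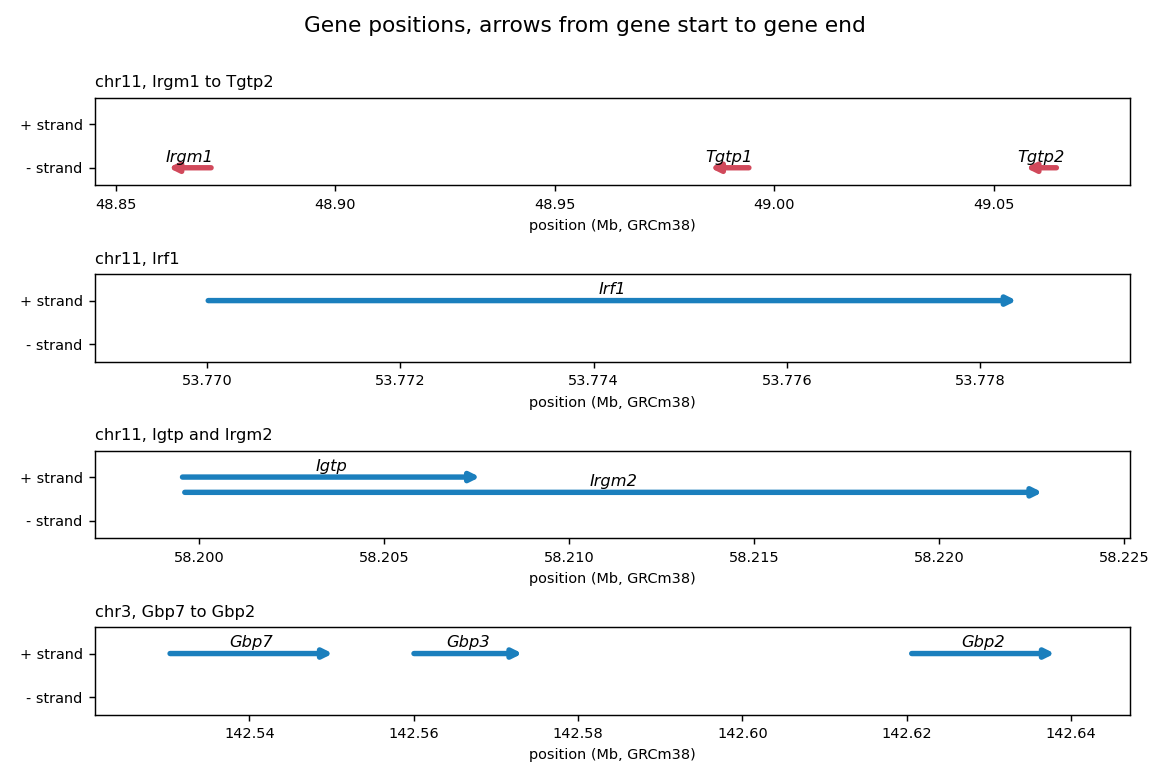
Positions and strands of 9 members in mouse build GRCm38. Arrows run from gene start to gene end.

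Members lie on chromosomes 11 and 3, apart from *Iigp1*, which lies on the plus strand of chromosome 18 at chr18:60376027-60392634. On chromosome 11 of GRCm38, *Irgm1*, *Tgtp1* and *Tgtp2* lie on the minus strand, at chr11:48861968-48871683, chr11:48985327-48994172 and chr11:49057194-49064206. *Igtp* (chr11:58199556-58207591) and *Irgm2* (chr11:58199618-58222782) start within a short distance of each other on the plus strand in GENCODE, and *Irf1* lies between these groups at chr11:53770014-53778374. *Gbp7*, *Gbp3* and *Gbp2* follow one another on the plus strand of chromosome 3, at chr3:142530342-142550149, chr3:142560026-142573209 and chr3:142620602-142638008.

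Promoters were read from the RefSeq annotation of GRCm38.p6 as 250 bases before to 50 bases after each start, and 9 of the 10 members have 1 or 2 of them, 11 in all. The RefSeq starts of *Irgm2* and *Tgtp1* lie far downstream of their GENCODE starts. Their promoters were read at chr11:58214727-58215026 and chr11:48992197-48992496. Searched on both strands, 8 of the 11 have a core of the interferon-stimulated response element (GAAANNGAA), 6 have a gamma-activated site (TTCNNNGAA) and 5 have both, against 8.56%, 8.3% and 1.07% of all 32851 promoters. A match is a description of sequence and does not show binding. The lines below give each stretch with 10 bases to either side, read along the strand of the gene, with capitals for bases of a match. Stretches lie at chr11:48992305-48992344 for *Tgtp1* and chr11:49064264-49064303 for *Tgtp2* on the minus strand, and at chr11:58199501-58199540 for *Igtp* and chr11:58214892-58214931 for *Irgm2* on the plus strand.

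Tgtp1: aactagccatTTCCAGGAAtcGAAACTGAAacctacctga
Tgtp2: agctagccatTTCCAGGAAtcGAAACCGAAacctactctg
Igtp: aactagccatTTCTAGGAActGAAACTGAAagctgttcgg
Irgm2: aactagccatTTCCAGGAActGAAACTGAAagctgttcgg

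These 4 stretches have the gamma-activated site 2 bases before the response element core, and are alike in most of the 40 bases. Other members differ. *Irf1*, on the plus strand at chr11:53769914-53769942, has a gamma-activated site alone. *Irgm1*, on the minus strand at chr11:48871426-48871460, has overlapping cores, as has *Gbp3* on the plus strand at chr3:142559990-142560024, and *Gbp2* at chr3:142620595-142620623 on the plus strand has 1 core.

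Irf1: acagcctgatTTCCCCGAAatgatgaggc
Irgm1: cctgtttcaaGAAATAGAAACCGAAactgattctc
Gbp3: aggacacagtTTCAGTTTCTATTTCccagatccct
Gbp2: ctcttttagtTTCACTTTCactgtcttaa

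*Gbp7* has 2 gamma-activated sites and, 26 bases further on, a core, in the stretch at chr3:142530220-142530302 on the plus strand.

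Gbp7: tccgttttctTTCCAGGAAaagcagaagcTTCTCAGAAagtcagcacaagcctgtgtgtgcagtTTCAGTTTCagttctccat

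The members were chosen by their genotype differences, so those differences in the same libraries carry no separate evidence. Comparisons of agents and of cell types use those libraries too and are not free of that choice. Control LT-HSC had 2 libraries after Ang II and 1 after PBS, and the labels do not give gender, batch or animal of origin. Differences from control cells cannot be told apart from those that go with intestinal markers. Transcript levels say nothing of GTPase protein, of its GTP loading or of interferon exposure, and the cause of any difference was not tested. *Tgtp1* and *Tgtp2* share most of their sequence, so their split is uncertain. Counts are fractions of a library, so they do not give RNA per cell.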

How the data were processed

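Expected counts from RSEM, deposited by the authors as whole numbers for 38887 genes in 36 libraries, were used. The submitters' processing notes name Bowtie2, RSEM 1.2.31, DESeq2 and build mm10, while the methods of their article name STAR and another RSEM release with stranded, paired-end total RNA libraries. Reads were not aligned again.

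In R 4.3.3, edgeR 4.0.16 (limma 3.58.1) fitted groups of genotype and agent within LT-HSC (16365 genes) and within HPC-1 (13199 genes), and groups of cell type, genotype and agent together (18013 genes). Low counts were removed with filterByExpr, libraries were scaled by TMM, and robust quasi-likelihood F tests were adjusted by the Benjamini-Hochberg method at 5%. CPM values use TMM-scaled library sizes, and log2 CPM values a prior count of 2. A call is an adjusted p under 0.05. Comparisons averaged over genotypes weight each pair of groups alike. The group with 1 library entered no comparison. SE belongs to the fitted log2 difference. Where a genotype comparison was fitted, members are given without p or calls.

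Members are the 10 genes the list names, found by symbol. The members, the marker lists and the pathway lists were chosen with earlier results of these data known. Named pathway genes are those called between cell types, up to 5 per list by adjusted p. Genes most alike are the 4 outside the list with the highest smaller r, of the 2 cell types, with the mean of the members' scaled log2 CPM. Correlations are Pearson, across libraries of a cell type.

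Alternatives were DESeq2 1.42.0, upper-quartile scaling, no filter, a filter on a mean of 10 counts, a fit of only the groups compared, the replicate number as a block, a covariate of Y-linked genes, only libraries under 4000000 counts, *Tgtp1* and *Tgtp2* added together, and leaving out each library in turn. Leaving out the libraries that stand apart, and the control libraries, was chosen after seeing the data. Positions, exon lengths and transcripts were taken from GENCODE M21 and promoters from RefSeq, GRCm38.p6.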

Additional observations from a re-analysis of the deposited data

Results flagged for a closer look

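Single libraries were compared with the others of their group by Dixon's ratio, where a group had at least 4 libraries. Of 40 such tests 4 passed, and chance alone would flag about 1 in 20. *Irgm2* was at 44.3 CPM in heterozygous LT-HSC library 1 after Ang II, against 61.0 to 64.0 in the other 3. *Iigp1* was at 37.4 CPM in heterozygous HPC-1 library 3 after Ang II, against 3.18 to 7.59. *Gbp2* was at 68.8 CPM in receptor-deficient LT-HSC library 1 after Ang II, against 45.9 to 49.6. *Gbp7* was at 169 CPM in heterozygous LT-HSC library 2 after Ang II, against 159 to 160. The cause was not tested.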

How the results depend on the processing

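The 9 alternatives, leaving out each of 35 libraries in turn, and 3 further choices made after seeing the data were compared with the values of the report. Counts of members called between agents or cell types changed by at most 1.5 times in 310 cases and by more, or from 0 or to 0, in 28. Log2 differences between agents and cell types reversed in 36 cases and lost a call in 9, and those between genotypes moved in 21 by more than the SD between libraries of a group. The other 3665 differences kept direction and side of the threshold or, between genotypes, stayed within that SD, where a change of sign was not counted as a reversal. For every change below the cause was not tested, and the median depth of 3139364 counts limits what can be read for scarce genes such as *Iigp1* in HPC-1.

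Between cell types, heterozygous cells after PBS had 1 member called. That count was 5 by DESeq2, 3 by upper quartile and with the replicate block, 4 with a mean of 10 counts, with only the groups compared and without the 2 libraries numbered 2 that stand apart or without all 3, 2 without a filter and without control libraries, 0 under 4000000 counts, and 0 to 2 with a library left out. Receptor-deficient cells after PBS had 1 called in place of 0 without a filter, 2 without the 2 libraries, and 0 to 1 with a library left out. After Ang II the count of 4 in control cells was 2 with only the groups compared. The count of 6 in heterozygous cells was 2 under 4000000 counts and at least 3 with a library left out. The count of 6 in receptor-deficient cells was 2 without a filter, 1 under 4000000 counts and at least 2 with a library left out. The cause was not tested.

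The following differences between agents or cell types reversed. For Ang II against PBS in LT-HSC, *Irgm1* (−0.05) was 0.00578 with the Y-linked covariate, 0.0515 under 4000000 counts, 0.0472 without the 2 libraries and 0.168 without the 3, and ran from −0.120 to 0.0516 with a library left out. *Igtp* (−0.23) was 0.00944 under 4000000 counts and 0.0504 without the 3 libraries. *Gbp2* (−0.01) was 0.0328 with the replicate block, 0.188 under 4000000 counts and 0.0983 without the 3 libraries, and ran from −0.0920 to 0.137 with a library left out. *Gbp3* (−0.30) was 0.114 under 4000000 counts and 0.0239 without the 3 libraries. With a library left out, *Tgtp1* (−0.17) ran from −0.282 to 0.0259 and *Gbp7* (−0.03) from −0.104 to 0.0319. In HPC-1, *Gbp2* (−0.01) was 0.0434 with the replicate block and 0.141 without control libraries, and ran from −0.105 to 0.0874 with a library left out. There *Irgm1* (−0.11) ran from −0.210 to 0.0355 and *Iigp1* (−0.22) from −0.633 to 0.0287. Between cell types *Irgm1* (−0.05) was 0.0212 by DESeq2 and ran from −0.0886 to 0.0212 with a library left out. The cause was not tested.

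Calls between cell types were lost for *Irf1*, at −0.21 by upper quartile (edgeR, adjusted p 0.0511), −0.27 without a filter (adjusted p 0.0789), −0.27 under 4000000 counts (adjusted p 0.0916), −0.18 without heterozygous HPC-1 library 1 after PBS (adjusted p 0.0981) and −0.21 without receptor-deficient HPC-1 library 2 after PBS (adjusted p 0.0555). *Ebi3* was at 0.87 with the Y-linked covariate (edgeR, adjusted p 0.0766), 1.13 under 4000000 counts (adjusted p 0.183) and 0.91 without control LT-HSC library 1 after Ang II (adjusted p 0.107). The other call lost was that of *Gbp8*, which passed the filter only through LT-HSC, so that its test is void and nothing is read from it. The cause was not tested.

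The labels do not say that equal replicate numbers share an animal or a batch, and they were not taken as pairs. Y-linked genes were at 0.317 CPM in heterozygous LT-HSC library 2 after PBS and at 269 CPM in heterozygous HPC-1 library 2 after PBS. Receptor-deficient libraries 2 after PBS, at 0 and 330 CPM, were split in the same way. As labelled, such libraries of equal number do not share an animal across cell types. Deviations from group means had an r over 0.1 in 7 of 16 pairs with the same number across cell types, 7 of 41 within HPC-1 and 8 of 27 within LT-HSC, against 4 of 40, 9 of 108 and 8 of 74 pairs with different numbers. As a block, the replicate number moved the count of members called between cell types from 1 to 3 in heterozygous cells after PBS and from 4 to 5 in control cells after Ang II, and changed no other count of members between agents or cell types.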
